A study of Mus musculus with 20 samples.

Results

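The genes described here are 10 widely used transcriptional targets of the coactivators YAP and TAZ: Ccn1, Ccn2, Crim1, Ankrd1, Amotl2, Axl, Ajuba, Vgll3, Prss23 and F3. They were taken by gene name from the deposited table of 21884 genes, and all 10 passed the filter on low values, 1 CPM or more (CPM, a gene's reads per 1000000 reads of its library) in 7 or more libraries, that 11677 genes passed. RNA-seq was performed on 7 murine malignant mesothelioma (MM) lines, each grown as a 2D MM cell line on plastic and as MM organoids in 3D culture in Matrigel, with 1 library per line and culture (14 libraries). All lines came from mice of the strain labelled C57/BL6 that developed MM after intraperitoneal fiber injection, from tumor tissue or, as the study lists it for m67, from ascites. Lines m5, m12, m28, m54 and m60 arose in p53+/- mice given crocidolite, m67 in a WT mouse given crocidolite and m107 in a p53+/- mouse given carbon nanotube. Each line stands for 1 mouse, so genotype and fiber cannot be compared here. The cultures differed in more than the matrix. The labels give 10% fetal bovine serum for all samples, whereas the study describes an organoid medium free of serum, with EGF, R-spondin1, Noggin and the ROCK inhibitor Y-27632. The effects of matrix, shape and medium on these genes therefore cannot be told apart.

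YAP (Yap1) and TAZ (Wwtr1) bind no DNA themselves. When the kinases LATS1 and LATS2 of the Hippo pathway are inactive, YAP and TAZ enter the nucleus and act through the TEAD transcription factors. On stiff substrates, with spread cells and actin stress fibers, YAP and TAZ are nuclear in many cell types, and in human mesothelioma the pathway is often altered through loss of NF2 or LATS2. Several targets act back on the pathway: angiomotin-like and Ajuba proteins bind its components, and Vestigial-like proteins compete for or share the TEAD factors.

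TEAD factors recognize the letters GGAATG, read on either strand (CATTCC on the other). RefSeq promoter windows, 250 bases before to 50 after a transcript start in RefSeq, were at hand for 9 of the 10 genes, all but Ccn2. The letters GGAATG occurred in the window of 7 of the 9 (Ccn1, Crim1, Ankrd1, Amotl2, Axl, Ajuba and Vgll3), compared with 16.6% of 27025 genes with a window. The core GAATG, which lies inside the longer motif, occurred in 8 of 9 compared with 42% of genes. The AP-1 letters TGANTCA occurred in 2 of 9 (Prss23 and F3) compared with 8.97% of genes, and a CArG box, the motif of serum response factor, in 0 of 9 compared with 1.81%. A gene counted if any of its windows matched. The 9 genes had 15 windows, several of them of Prss23, and the 27025 genes had 32851. Because the genes were chosen as known YAP and TAZ targets, these counts describe the sequences and are no test. Shown here are the 250 bases before the RefSeq start of the 4 genes with a TEAD match and a called lower level in 3D. Ankrd1, which had a pair of matches and no called difference, is shown too. Ajuba also had a pair of matches and Axl had a match, and neither was called. Prss23 was called lower and had no GGAATG match in its windows. Bases are from RefSeq (GRCm38.p6), were found once on the same chromosome of GRCm39, run 5′ to 3′ on the gene's strand, and have the TEAD letters in capitals. They lie at chr3:145355741-145355990 (Ccn1, minus strand), chr17:78507427-78507676 (Crim1, plus), chr9:102594753-102595002 (Amotl2, plus), chr16:65611825-65612074 (Vgll3, plus) and chr19:36097245-36097494 (Ankrd1, minus).
Ccn1: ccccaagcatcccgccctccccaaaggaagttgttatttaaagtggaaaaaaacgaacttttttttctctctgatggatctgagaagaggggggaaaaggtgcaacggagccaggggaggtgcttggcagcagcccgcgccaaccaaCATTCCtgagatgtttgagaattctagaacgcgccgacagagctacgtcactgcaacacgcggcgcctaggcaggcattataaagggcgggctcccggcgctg
Crim1: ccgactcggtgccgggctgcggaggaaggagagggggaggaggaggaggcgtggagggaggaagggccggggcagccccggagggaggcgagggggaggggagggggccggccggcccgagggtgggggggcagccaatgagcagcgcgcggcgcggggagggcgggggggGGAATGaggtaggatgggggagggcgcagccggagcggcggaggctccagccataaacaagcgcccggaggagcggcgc
Amotl2: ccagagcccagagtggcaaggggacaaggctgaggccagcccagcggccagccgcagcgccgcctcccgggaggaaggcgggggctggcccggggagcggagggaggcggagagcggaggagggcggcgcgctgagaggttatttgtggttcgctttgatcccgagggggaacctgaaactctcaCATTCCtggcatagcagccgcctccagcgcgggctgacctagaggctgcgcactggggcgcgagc
Vgll3: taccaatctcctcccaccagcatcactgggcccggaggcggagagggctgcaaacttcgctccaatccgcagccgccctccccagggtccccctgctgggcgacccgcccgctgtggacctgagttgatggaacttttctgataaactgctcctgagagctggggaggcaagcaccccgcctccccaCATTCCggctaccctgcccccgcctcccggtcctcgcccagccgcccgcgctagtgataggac
Ankrd1: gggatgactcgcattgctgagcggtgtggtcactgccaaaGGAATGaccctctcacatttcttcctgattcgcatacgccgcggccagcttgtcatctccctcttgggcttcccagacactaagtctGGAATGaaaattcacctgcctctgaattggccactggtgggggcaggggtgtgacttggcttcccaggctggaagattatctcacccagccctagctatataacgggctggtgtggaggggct
Counted from the RefSeq start, the match lay at -103 to -98 in Ccn1, -79 to -74 in Crim1, -65 to -60 in Amotl2 and -63 to -58 in Vgll3. In Ankrd1 the matches lay at -210 to -205 and -123 to -118. The capitals mark letters only, and binding was not measured. Gene positions given below are the bounds of genes in GENCODE, whose starts can differ from the RefSeq starts used here. By those bounds the bases shown for Amotl2 and Ankrd1 and the match in Vgll3 lie inside the gene. The match in Crim1 spans its GENCODE start.

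Libraries held 11134018 to 53911770 reads, so a count of 0 allows 0.0556 to 0.269 CPM (3 reads, counting error only). Some libraries stood apart from their labels. Relative to the mean of its culture, each 2D library resembled the 3D library of its own line in 5 lines (r across genes, 0.317 to 0.703) but not in m5 (0.004) or m12 (-0.110). The 4 Y-linked genes examined summed to 249 CPM in the 2D library of m5 and 0 in its organoids, whereas m12 had 0 in 2D and 200 CPM in 3D. Line m28 had 0.666 CPM in 2D and 0 in 3D, and its libraries resembled each other (r = 0.703). The study describes the fiber-injected mice as male. The 8 epithelial markers summed to 3694 CPM in 3D m12 and to at most 211 in any other library, and of the 6 mesothelial markers in that library Gpm6a and Upk1b had no read and Wt1 was at 0.0371 CPM, but Msln was at 647 CPM, the highest of the 14 libraries. The mesothelial sum of 3D m12 was 648 CPM, inside the range of the other organoids, but Msln made up nearly all of it. Upk3b (1.06 CPM) and Lrrn4 (0.111 CPM) were in 3D m12 the lowest of the organoid libraries. The 9 macrophage markers summed to 2103 CPM in 3D m67 and to at most 47.5 elsewhere. Results are therefore also given without m5 and m12, and in bulk RNA fewer cells of a type and less RNA per cell cannot be told apart.

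In MM organoids, 6 of the 10 target genes fell against the 2D MM cell lines: Ccn1, Ccn2, Crim1, Amotl2, Vgll3 and Prss23. None of the 10 was called higher by limma, edgeR or DESeq2, nor higher by limma at an unadjusted p under 0.05. The test was limma on log2(CPM + 1) with line and culture in the model, adjusted by the Benjamini-Hochberg method over all 11677 genes, and of these 1.18% were called lower and 2.1% higher in 3D (138 and 245 genes, against 171 and 182 with TMM scaling and 170 and 180 with quantile normalization). The median log2 fold change (3D minus 2D) was -1.61 for the 10 genes and 0.06 for all tested genes. With TMM scaling these medians were -1.68 and -0.01. Of the 10 genes, 5 were lower in 3D in 7 of 7 lines, as were 3.9% of all tested genes. No gene of the 10 had every 3D library below every 2D library, a pattern found in 0.334% of tested genes. Without m5 and m12 that pattern held for 5 of the 10 (Ccn1, Ccn2, Crim1, Amotl2 and Ajuba) and for 0.899% of tested genes. In the fit without them 7 of the 10 were called lower, as were 1.11% of tested genes. Leaving out single lines took the count of the 10 genes called lower to between 0 (without m54) and 7 (without m12), and it was 1 without m5, m28 or m67, 3 without m60 and 5 without m107, while over these omissions 8 to 263 of all tested genes were called lower.

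**Figure D1:**
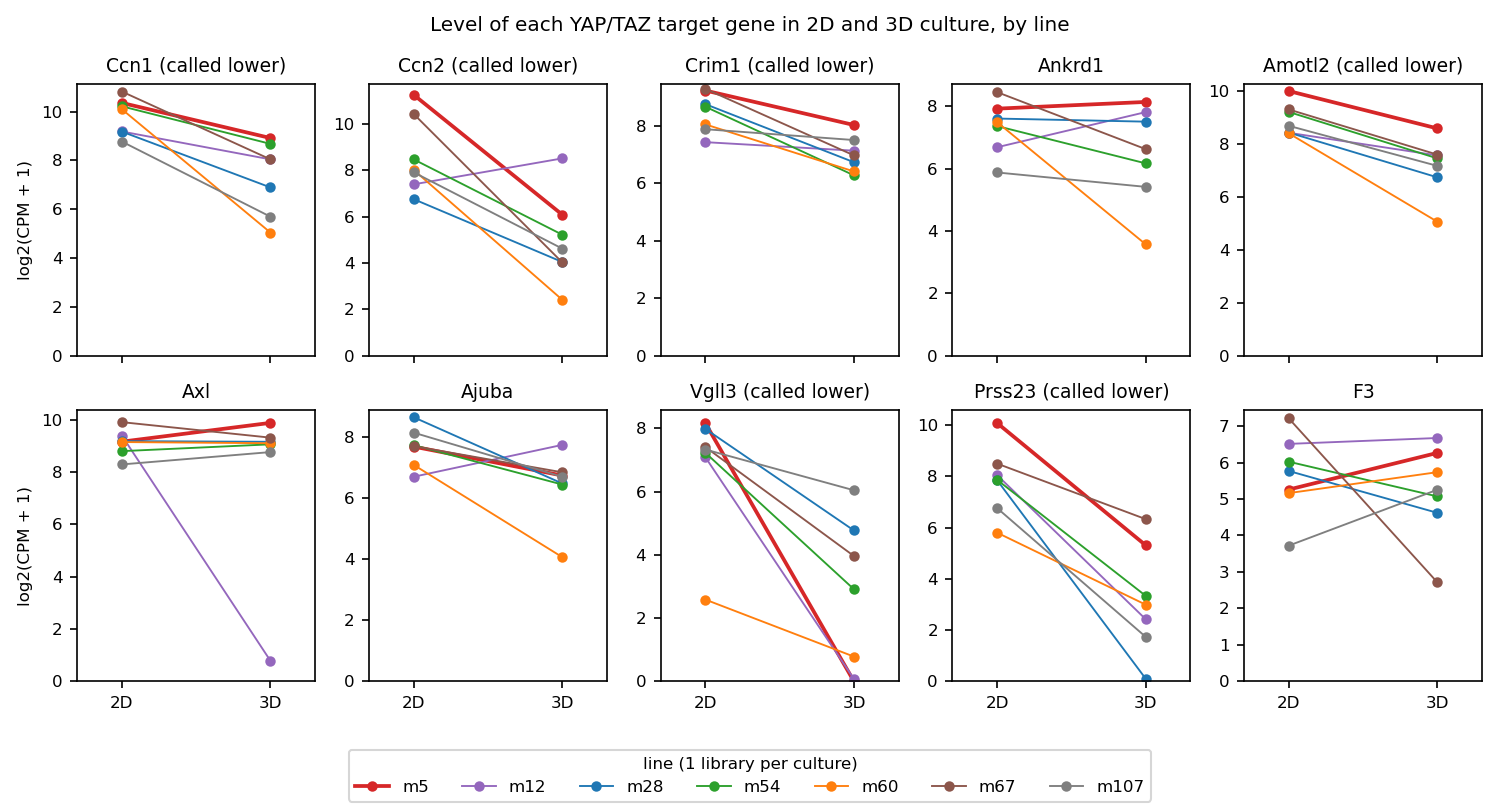
Level of each of the 10 genes as log2(CPM + 1), in 2D and 3D culture, with 1 point per library and a line joining the libraries of an MM line (m5 drawn thicker). All lines slope down for Ccn1, Crim1, Amotl2, Vgll3 and Prss23, whereas the steep slope in the Axl panel is m12 alone and in the F3 panel m67.

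The secreted matricellular proteins CCN1 and CCN2, formerly CYR61 and CTGF, bind integrins and heparan sulfates and are the most commonly read targets of YAP. In 2D culture, Ccn1 (chromosome 3, 145352720 to 145355738, GRCm39) was at 1313 CPM in m5, 582 in m12, 580 in m28, 1191 in m54, 1096 in m60, 1812 in m67 and 437 in m107. In 3D culture Ccn1 was at 483 CPM in m5, 263 in m12, 118 in m28, 409 in m54, 32 in m60, 263 in m67 and 50.8 in m107. Every line had less Ccn1 as organoids, and the groups overlapped only because 3D m5 exceeded 2D m107. Ccn1 had a log2 fold change of -2.47 ± 0.43 (SE, n = 7 lines), or 5.56-fold lower (95% interval of the log2 value, -3.46 to -1.49, limma adjusted p = 0.0312). Without m5 and m12 it was -2.95 (adjusted p = 0.0234). Its call was lost on omission of m5, m28, m54 or m67, where the adjusted p rose to 0.0905 at most, while the log2 fold change stayed between -2.70 and -2.04 over all 7 omissions.

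Ccn2 (chromosome 10, 24471333 to 24474900) was in 2D at 2447 CPM in m5, 167 in m12, 107.1 in m28, 354 in m54, 258 in m60, 1380 in m67 and 240 in m107. As organoids the lines had Ccn2 at 66.9 CPM in m5, 364 in m12, 15.5 in m28, 36.3 in m54, 4.33 in m60, 15.3 in m67 and 23.6 in m107. The 2D libraries of m5 and m67 were far above the other 5, and m12 was the one line with more Ccn2 in 3D than in 2D. The log2 fold change of -3.62 ± 0.79 (SE, n = 7), 12.3-fold lower, passed narrowly (limma adjusted p = 0.049). It was -4.41 without m12 (adjusted p = 0.0069) and lost its call on omission of any other line (0.0638 to 0.116), and with a pseudocount of 0.1 or 5 or quantile normalization (0.0504 to 0.0535). Another family member, Ccn4, was lower in 3D in 7 of 7 lines without passing the test (-2.19 ± 0.84, limma adjusted p = 0.155), and it had 3 reads in 3D m12. Ccn3, Ccn5 and Ccn6 did not pass the filter on low values.

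Crim1 (chromosome 17, 78507601 to 78684021) encodes a transmembrane protein with cysteine-rich repeats that binds BMPs. Its 2D levels were 596 CPM in m5, 171 in m12, 429 in m28, 403 in m54, 263 in m60, 621 in m67 and 234 in m107. Its 3D levels were 259 CPM in m5, 139 in m12, 105 in m28, 76.3 in m54, 83.9 in m60, 124 in m67 and 180 in m107. All 7 lines had less in 3D, with small differences in m12 and m107, and only 3D m5 and 3D m107 reached the range of the 2D libraries, above 2D m12. The log2 fold change was -1.46 ± 0.29 (SE, n = 7), the smallest of the 6 that passed (2.75-fold lower, limma adjusted p = 0.0377), and -1.74 without m5 and m12 (0.0303). Omission of m5, m28, m54, m60 or m67 lost the call (adjusted p up to 0.112). Of 4 BMP ligands and antagonists past the filter, Bmp2, Bmp4, Chrd and Grem1, 0 passed limma's test in either direction (2 had an unadjusted p under 0.05), with log2 fold changes of -1.30 to -0.39.

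Prss23 (chromosome 7, 89152034 to 89176756), a secreted serine protease, had the largest log2 fold change of the 10 over all 7 lines with a pseudocount of 1. With a pseudocount of 0.1 Vgll3 was at -5.21 and Prss23 at -5.19. Prss23 stood in 2D at 1088 CPM in m5, 265 in m12, 231 in m28, 233 in m54, 55 in m60, 362 in m67 and 108 in m107. In 3D it stood at 38.8 CPM in m5, 4.38 in m12, 0.077 in m28 (1 read), 9.14 in m54, 6.98 in m60, 79.8 in m67 and 2.34 in m107. Every line had less in 3D, and the groups overlapped because 3D m67 exceeded 2D m60. Prss23 had a log2 fold change of -4.67 ± 0.59 (SE, n = 7), 25.4-fold lower (95% interval, -6.01 to -3.33, limma adjusted p = 0.0145), and -4.46 without m5 and m12 (0.029). It lost its call on omission of m54 alone (0.0555). In m28 the 2D level was 2997 times the 3D level, with a counting interval of 538 to 118404. Culture accounted for 67% of the variance of Prss23 on the log2 scale, compared with a median of 8.22% over all tested genes.

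Amotl2, Vgll3 and Ajuba encode proteins that act on the pathway itself. Amotl2 (chromosome 9, 102593836 to 102610617), an angiomotin that binds YAP and links it to junctions and actin, was in 2D at 1012 CPM in m5, 339 in m12, 341 in m28, 585 in m54, 334 in m60, 625 in m67 and 407 in m107. Organoid levels of Amotl2 were 380 CPM in m5, 187 in m12, 105 in m28, 173 in m54, 32.2 in m60, 191 in m67 and 142 in m107. Apart from 3D m5, every organoid library was below every 2D library. Amotl2 fell by 1.75 on the log2 scale (SE 0.26, n = 7, 3.37-fold lower, limma adjusted p = 0.022), with an adjusted p of 0.0176 without m5 and m12. It was the 1 member of the 10 that edgeR's quasi-likelihood test on the recovered reads also called (adjusted p = 0.0357). Omission of m5, m28, m54 or m67 gave adjusted p values of 0.0505 to 0.0752. Its relatives Amot and Amotl1 had log2 fold changes of 0.36 ± 0.31 and 0.03 ± 0.31 and did not pass the test (limma adjusted p = 0.489 and 0.965).

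Vgll3 (chromosome 16, 65611923 to 65663369), a Vestigial-like cofactor of TEAD, was in 2D at 286 CPM in m5, 135 in m12, 252 in m28, 149 in m54, 5.01 in m60, 169 in m67 and 160 in m107. In 3D Vgll3 had no read in m5 and stood at 0.0556 CPM in m12 (3 reads), 26.3 in m28, 6.53 in m54, 0.722 in m60, 14.6 in m67 and 64.9 in m107. Line m60 was low in both cultures, and the lines with the most marked differences were m5 and m12. The level in 3D m5 was at least 3552-fold lower than in 2D m5, taken against 3 reads in that library, and in m12 the ratio was 2425 (counting interval, 829 to 11763). Both ratios rest on the line labels, since the 2D and 3D libraries of m5 and of m12 did not resemble each other. The counting interval does not cover this. In the other lines the ratio of 2D to 3D was 2.47 (m107) to 22.9 (m54). The log2 fold change was -4.18 ± 0.82 (SE, n = 7, limma adjusted p = 0.0367) and depends on the pseudocount at such levels, being -5.21 with 0.1 (0.0606) and -3.23 with 5 (0.0314). Without m5 and m12 it was -2.82 (0.0239). Single omission of m5, m28, m54, m60 or m67 lost the call (adjusted p up to 0.0988). Of the other Vestigial-like genes, Vgll4, which competes with YAP for TEAD, had 0.52 ± 0.19 and did not pass (0.14), while Vgll1 and Vgll2 were below the filter.

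Ajuba (chromosome 14, 54804787 to 54815027), a LIM protein that binds LATS kinases, was in 2D at 203 CPM in m5, 102 in m12, 396 in m28, 210 in m54, 134 in m60, 205 in m67 and 279 in m107. Its organoid levels were 105 CPM in m5, 211 in m12, 87.5 in m28, 85.4 in m54, 15.7 in m60, 113 in m67 and 102 in m107. In 3D, 6 of the lines had less and m12 had more, and the log2 fold change of -1.24 ± 0.41 (SE, n = 7) did not pass (limma adjusted p = 0.109). It passed without m12 (-1.62, 0.0229), without m5 and m12 (-1.75, 0.0322) and with DESeq2 (-1.36, 0.0103). The related LIM proteins Limd1 and Wtip had log2 fold changes of -0.03 ± 0.16 and 0.12 ± 0.16 and did not pass either (limma adjusted p = 0.928 and 0.674).

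Ankrd1 (chromosome 19, 36089352 to 36097506), an ankyrin repeat protein of muscle sarcomeres and nuclei, was in 2D at 242 CPM in m5, 102 in m12, 194 in m28, 164 in m54, 179 in m60, 350 in m67 and 57.8 in m107. As organoids, Ankrd1 was at 281 CPM in m5, 224 in m12, 181 in m28, 71 in m54, 10.9 in m60, 97.8 in m67 and 41.7 in m107. The groups overlapped widely, with 5 of 7 lines having less Ankrd1 as organoids. Its log2 fold change was -0.88 ± 0.53 (SE, n = 7, limma adjusted p = 0.326), with a 95% interval of -2.08 to 0.32. It was -1.50 without m5 and m12 (0.136).

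The receptors Axl and F3 were lower in 3D in some lines and higher in others. Axl (chromosome 7, 25456535 to 25488329), a receptor tyrosine kinase of the TAM family with the ligand GAS6, was in 2D at 571 CPM in m5, 670 in m12, 579 in m28, 444 in m54, 565 in m60, 958 in m67 and 312 in m107. In 3D Axl was at 940 CPM in m5, 0.723 in m12 (39 reads), 569 in m28, 532 in m54, 548 in m60, 635 in m67 and 433 in m107. The other organoid libraries were within the 2D range but 3D m12, the library with epithelial markers, was far below it. The log2 fold change was -1.12 ± 1.05 with m12 (SE, n = 7, limma adjusted p = 0.532) and 0.13 without it (0.659), where the part of the epithelial markers was not tested. The related receptors Tyro3 and Mertk and the ligands Gas6 and Pros1 did not pass limma's test, with log2 fold changes of -0.38 to 0.76.

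F3 (chromosome 3, 121516610 to 121528820), tissue factor, is the cell-surface receptor that starts blood coagulation. Its 2D levels were 37.3 CPM in m5, 90.2 in m12, 53.5 in m28, 64 in m54, 34.8 in m60, 147 in m67 and 12.2 in m107. Its 3D levels were 75.9 CPM in m5, 101 in m12, 23.6 in m28, 32.6 in m54, 52.3 in m60, 5.56 in m67 and 37.2 in m107. F3 was lower in 3 lines and higher in 4, and the log2 fold change of -0.48 ± 0.65 (SE, n = 7, limma adjusted p = 0.673) became 0.20 without m67 (0.795). The 3D m67 library was the one with macrophage markers, and their part in its low F3 was not tested. Among other genes of coagulation and fibrinolysis, Plat, tissue plasminogen activator, rose (1.13 ± 0.22, limma adjusted p = 0.0381, higher in 7 of 7 lines), and F2r, F2rl1 and Plau did not pass. The call of Plat was lost on omission of m5, m28, m54, m60 or m67, with adjusted p values as high as 0.0988.

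The 10 genes did not move by the same amount within a line. Over the 10 genes the median log2 difference (3D minus 2D) was -2.91 in m60, -2.24 in m67, -2.09 in m28, -1.65 in m54, -1.37 in m107, -1.30 in m5 and -0.57 in m12, while the median of all tested genes was between -0.01 and 0.16 in every line. In m28 and m67 all 10 genes were lower in 3D, in m54 and m60 9 were, in m107 8, in m5 7 and in m12 6. The 3D library of m60 was the lowest of the 7 organoid libraries for 5 of the 10 genes (Ccn1, Ccn2, Ankrd1, Amotl2 and Ajuba), with differences of -5.05 for Ccn1 and -5.60 for Ccn2. Genes differed in which line changed most: m67 for Ccn2 and F3, m54 for Crim1, m28 for Prss23, m12 for Axl, m5 for Vgll3 and m60 for the other 4. In 2D culture m67 was highest for 5 of the 10 genes and m5 for 4. With 1 library per line and culture, the order of lines has no replicate check. The shares of all tested genes that were highest or lowest in each library were not counted.

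**Figure D2:**
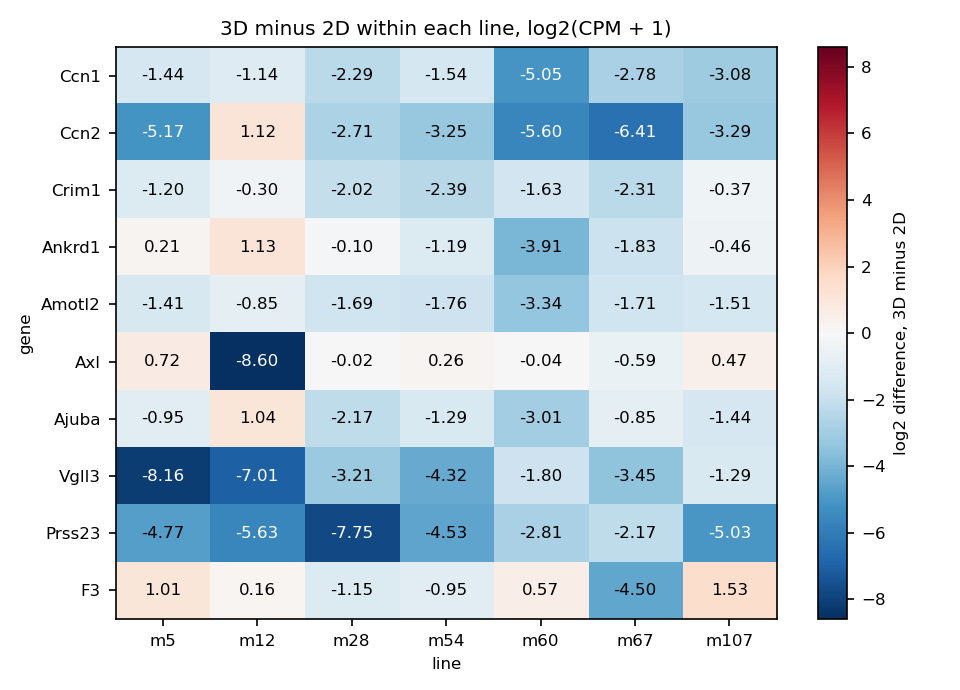
Difference between the 3D and the 2D library of each line on the log2(CPM + 1) scale, by gene and line (blue, lower in 3D, red, higher in 3D, values printed in the cells). Columns m28 and m67 hold no positive value, m12 holds 4, and the widest differences are -8.60 for Axl in m12 and -8.16 for Vgll3 in m5.

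The MM organoids of m5 are shown apart because Yap1 was at 3989 CPM there, compared with 135 to 256 in the other 6 organoid libraries and 246 in 2D m5, a level 11.4 times that of the next highest library of the 14. In 3D m5 the target genes Ccn1, Crim1, Ankrd1, Amotl2 and Axl were each the highest of the 7 organoid libraries. Ccn2, Prss23 and F3 were the second highest, Ajuba was the third and Vgll3, with no read, the lowest. The share of all tested genes that were highest in 3D m5 was not counted. These ranks therefore cannot be read as particular to the target genes. On the log2 scale 3D m5 was above the median of the other 6 organoid lines by 1.45 for Ccn1, 1.75 for Ccn2, 1.18 for Crim1, 1.74 for Ankrd1, 1.27 for Amotl2 and 2.60 for Prss23. The smaller distances were 0.80 for Axl, 0.15 for Ajuba and 1.10 for F3, and for Vgll3 it was -3.44.

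Line m5 also held high levels in 2D, where its Yap1 level was inside the range of the other lines. There it was the highest of 7 for Ccn2, Amotl2, Vgll3 and Prss23 and the second for Ccn1, Crim1 and Ankrd1. In 2D m5 the distances from the median of the other 6 lines were 0.72 for Ccn1, 3.29 for Ccn2, 0.87 for Crim1, 0.50 for Ankrd1, 1.44 for Amotl2, 2.23 for Prss23 and -0.64 for F3. Of the 10 genes, 4 were highest in m5 in 2D and 5 in 3D, with the shares of all tested genes not counted. The 3D m5 library was below 2D m5 for 7 of the 10 genes, and for 8 of the 10 the difference between the cultures of m5 was inside the range of the other 6 lines. The exceptions were Axl, with 0.72 against at most 0.47, and Vgll3, with -8.16 against at lowest -7.01. Because 2D m5 and 3D m5 did not resemble each other and differed in Y-linked genes, their comparison rests on the label of the line, and a single library allows no test.

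**Figure D3:**
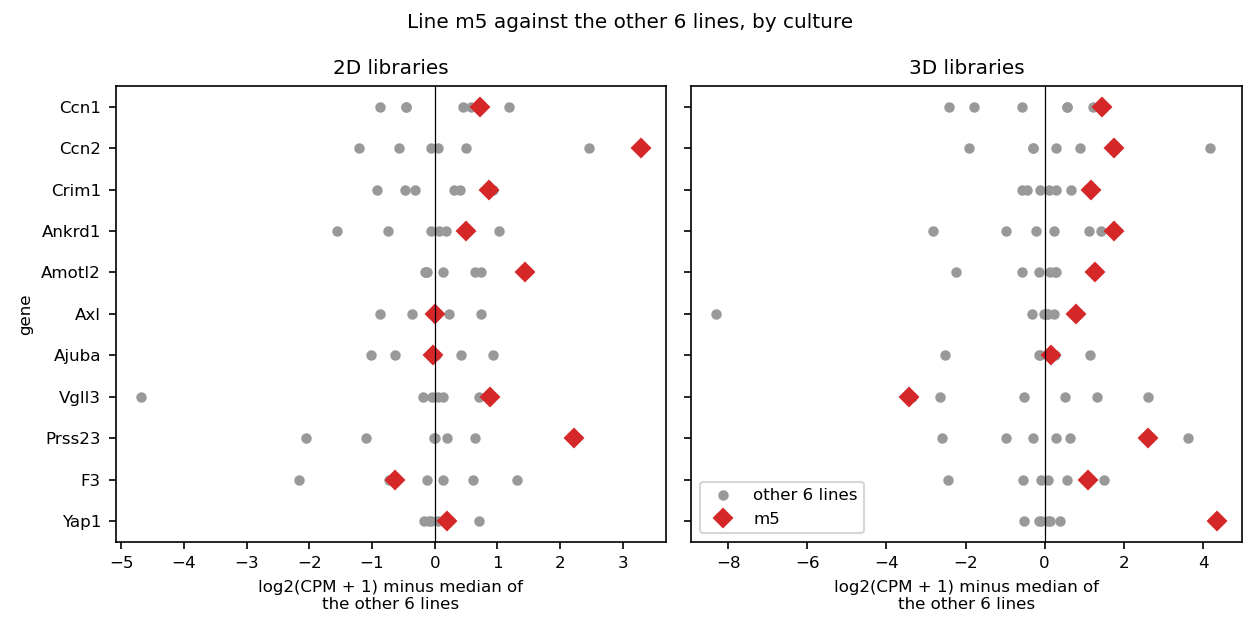
Distance of each library from the median of the 6 lines other than m5, on the log2(CPM + 1) scale, for the 10 genes and Yap1 in 2D (left) and 3D (right), with m5 as red diamonds and the other lines as gray points. Yap1 in 3D m5 lies 4.36 above that median, and 9 of the 10 target genes lie to the right of it in 3D m5, while Vgll3 lies at -3.44.

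The transcripts of the coactivators themselves did not pass the test. Yap1 had a log2 fold change of 0.34 ± 0.52 (SE, n = 7, limma adjusted p = 0.713), with the high value of 3D m5 in it, and -0.27 without m5 (0.291). Wwtr1, which encodes TAZ, had -0.24 ± 0.16 (0.374), with 173 to 340 CPM in 2D and 126 to 300 in 3D. Tead1 fell in 3D (-0.80 ± 0.14, limma adjusted p = 0.0312), from a median of 388 CPM (254 to 590) to 238 (173 to 281), and was lower in 7 of 7 lines. The call of Tead1 was lost on omission of m5, m28, m54, m60 or m67 (at most 0.093) and of m5 and m12 together (-0.68, 0.0725). Tead2, Tead3 and Tead4 did not pass, with log2 fold changes of 0.05 ± 0.25, -0.31 ± 0.34 and -1.29 ± 0.50. Protein level and nuclear location of YAP and TAZ, on which their activity depends, were not measured by these data.

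Of the 10 genes, 7 belong to a published YAP/TAZ signature (Ccn1, Ccn2, Crim1, Ankrd1, Amotl2, Axl and F3), of which 4 were called lower. Of the other 15 genes of that signature, 1 was called lower, Lats2, and 0 higher, with a median log2 fold change of -0.66 and 11 of 15 below 0. At an unadjusted p under 0.05, 5 of these 15 were lower, as were 8.69% of all tested genes. Lats2, the Hippo kinase that is itself a target and restrains YAP, fell from 34.8 to 101 CPM in 2D to 15.5 to 44 CPM in 3D (-1.23 ± 0.13, limma adjusted p = 0.00911, lower in 7 of 7 lines). Igfbp3, Foxf2, Nt5e, Nuak2 and Asap1 had log2 fold changes of -1.46 to -1.07 without passing the test, and Gadd45a, Rbms3, Fjx1 and Arhgef17 had 0.30 to 0.70, also without passing. Of 12 Hippo kinases and scaffolds, 2 were called lower, Lats2 and Wwc2 (-1.60 ± 0.13, 0.00331), and 0 higher. Wwc2, a scaffold that activates LATS kinases, was lower in 7 of 7 lines, and the calls of Lats2 and Wwc2 were kept on omission of any 1 line. Lats2 lost its call without the line term (limma adjusted p = 0.0503) and with the crocidolite lines from p53+/- mice alone (0.068).

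**Figure D4:**
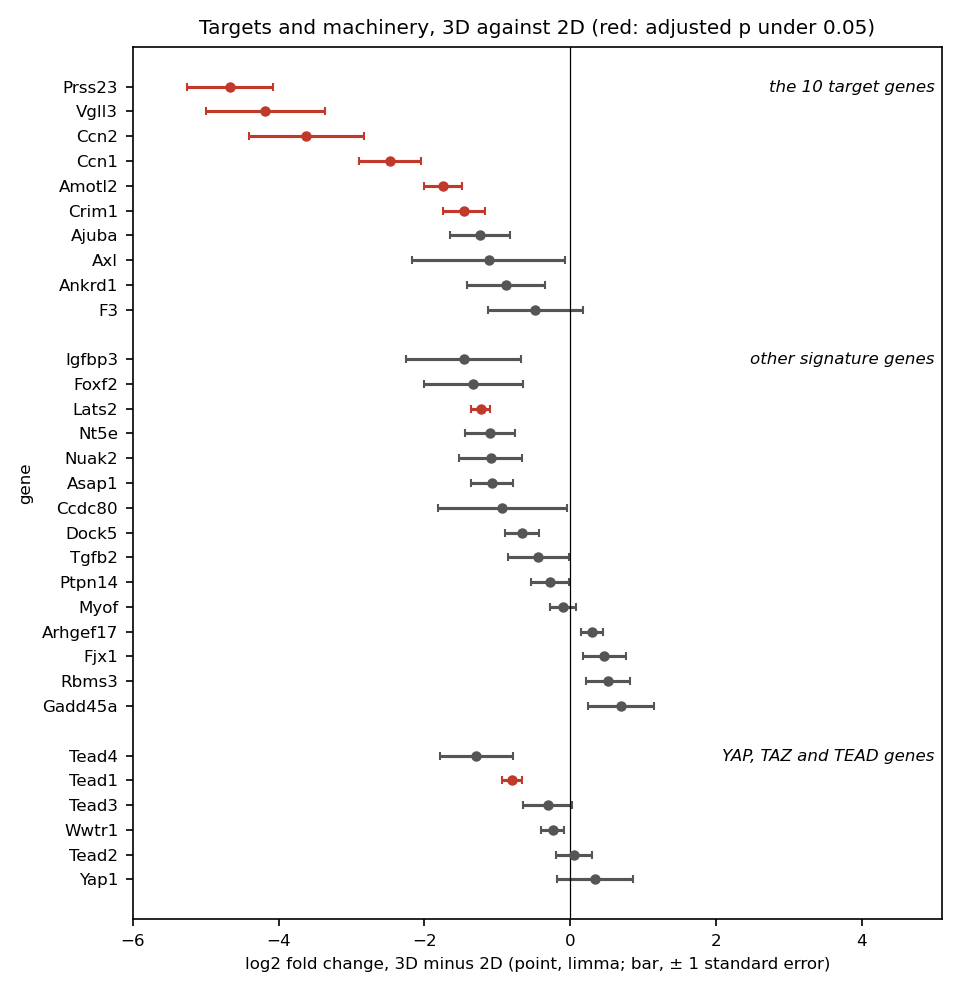
Log2 fold change (3D minus 2D, limma, 7 lines) with 1 standard error on either side, for the 10 target genes, the other 15 signature genes and the genes of YAP, TAZ and the TEAD factors. Red points passed an adjusted p of 0.05, namely 6 of the 10 target genes, Lats2 and Tead1.

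The list of smooth muscle and fibroblast markers did not move as one, with a median log2 fold change of -0.25 and 3 of 6 tested genes below 0. Acta2 and Tagln, which encode proteins of actin stress fibers, fell (-4.77 ± 0.83 and -6.55 ± 0.42, limma adjusted p = 0.0306 and 0.00141). Tagln kept its call on omission of any 1 line, and Acta2 lost it without m5, m28, m54, m60 or m67 (up to 0.0903). The other 4 tested genes did not pass, with log2 fold changes of -0.66 for Myh11, 0.15 for Dcn, 0.32 for Pdgfrb and 0.82 for Pdgfra, and the 7 listed genes summed to 1648 to 4462 CPM in 2D and 0.427 to 3091 CPM in 3D. All 6 mesothelial markers had log2 fold changes below 0, with a median of -1.25. None passed limma's test, and 2 of them had an unadjusted p under 0.05. Lower in 7 of 7 lines were 2 of the 6, Upk3b (-1.98, limma adjusted p = 0.166) and Upk1b (-3.02, 0.0507). The mesothelial sum was 368 to 9346 CPM in 2D and 412 to 4213 CPM in 3D. Of the epithelial and macrophage lists, 2 genes each were tested and 0 passed, at an unadjusted p under 0.05 also 0. The filter on low values removed the rest of both lists. Their sums were highest in 1 library each, 3D m12 and 3D m67. A fit over 7 lines therefore cannot decide whether epithelial cells or macrophages differ between the cultures. The part of such cells in the levels of the 10 genes was not tested. Without m5, m12 and m67, an omission chosen after seeing the data, 4 of the 10 genes were called lower, compared with 0.437% of tested genes. They were Ccn2, Amotl2 and Prss23 of the 6 called with all lines, and Ajuba, while Ccn1, Crim1 and Vgll3 lost their calls (limma adjusted p = 0.0611, 0.0825 and 0.0671).

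Calls differed between tests. DESeq2 on the recovered reads called 7 of the 10 lower (the 6 above and Ajuba) and 7.48% of tested genes. By edgeR's quasi-likelihood test 1 of the 10 was lower, Amotl2, and 0.3% of tested genes, with adjusted p values of 0.051 for Ccn1 and Prss23. Flipping the sign of the 7 line differences in every combination (exact permutation test, two-sided) gave p = 0.0156, the smallest it allows, for each of Ccn1, Crim1, Amotl2, Vgll3 and Prss23. By the same exact permutation test p was 0.0312 for Ccn2, 0.0625 for Ajuba, 0.203 for Ankrd1, 0.703 for F3 and 0.766 for Axl, unadjusted over 10 genes. This test takes all 7 pairs as labelled, with the doubtful ones of m5 and m12. It was not run without them, where its smallest possible p would be larger.

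**Figure D5:**
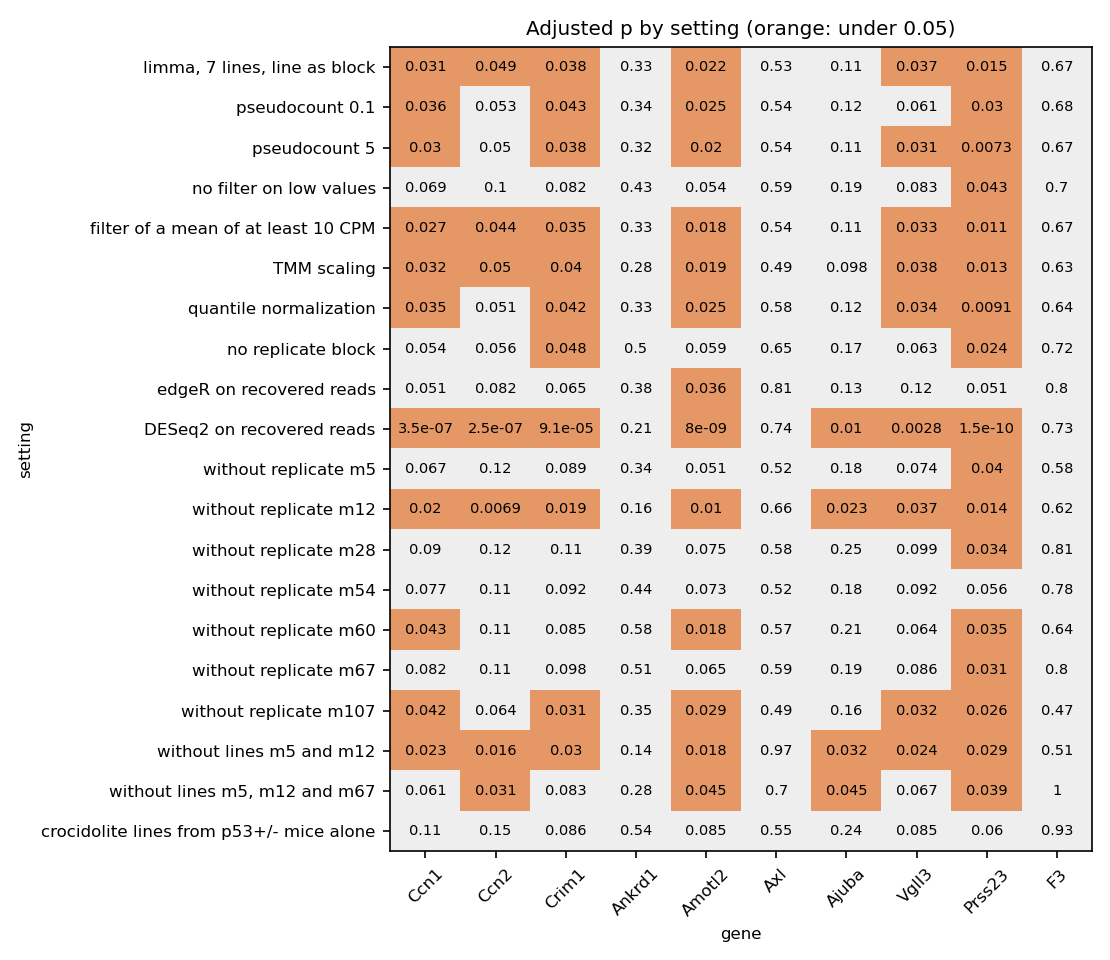
Adjusted p of each of the 10 genes (columns) under each setting of the comparison (tiles in orange are under 0.05). Prss23 was under the threshold with every setting except edgeR, the fit without m54 and the 5 crocidolite lines from p53+/- mice alone, whereas Ankrd1, Axl and F3 were under it with none.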

How the data were processed

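RNA-seq of the 14 MM libraries was analysed, and the 6 samples of normal mesothelial cells have no values in the table and were not used here. The authors deposited CPM (reads of a gene per 1000000 reads of the library), made per the study's methods with Trim Galore 0.6.4, STAR 2.7.9a on GRCm39 and HTSeq 0.12.4. They scaled reads to the library total only, since 100% of values were whole multiples of 1 read (within 0.001), so reads could be recovered. The p and q values of the authors' own comparison were not used.

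The test covered genes reaching 1 CPM in 7 or more libraries and was done with limma 3.58.1 (R 4.3.3) on log2(CPM + 1), with line and culture in the model and trended variances, two-sided, Benjamini-Hochberg adjusted, threshold 0.05. Fold changes are on the log2(CPM + 1) scale, which understates changes of low genes. By the labels each line was grown in both cultures, so line pairs the libraries. With line in the model, p values measure how the difference between the cultures varied from line to line. The pairs of m5 (r = 0.004) and m12 (r = -0.110) did not resemble each other, so their pairing rests on the labels alone. Alternatives were pseudocounts of 0.1 and 5, other filters (none, or a mean of at least 10 CPM), TMM and quantile scaling, no line term, edgeR 4.0.16 and DESeq2 1.42.0 on recovered reads, and omission of lines. The fits were tested on simulated data. Promoter windows came from RefSeq, and gene positions from GENCODE on GRCm39. All 10 target genes are named. Other genes came from lists of the signature, the Hippo pathway, families and partners of the targets, and cell type markers. YAP, TAZ and TEAD genes are always named, and of the other lists those past the threshold or set beside a target. Members and lists were chosen with earlier results of these data known. The 5 other signature genes with the lowest and 4 with the highest fold changes were named after their values were seen. Of the listed genes, 1 is not reported here.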

Additional observations from a re-analysis of the deposited data

Results flagged for a closer look

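In 32 groups of 7 libraries (the 10 target genes and the 6 genes of YAP, TAZ and TEAD factors, in each culture), 5 held 1 library far from the other 6 on the log2(CPM + 1) scale by Dixon's ratio, the gap to the nearest library divided by the whole range. Chance gives about 1 in 20 such groups if values are independent and normally distributed, which was not tested. Axl in 3D m12 was the lowest of the organoid libraries, at 0.723 CPM (ratio 0.877). Vgll3 in 2D m60 was the lowest of the 2D libraries, at 5.01 CPM (ratio 0.807), and Ajuba in 3D m60 the lowest organoid library, at 15.7 CPM (ratio 0.646). Yap1 was the highest in 3D m5, at 3989 CPM (ratio 0.812), and in 2D the highest in m28, at 351 CPM (ratio 0.582).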

How the results depend on the processing

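Of the 10 target genes, 6 were called lower and 0 higher, and of all tested genes 138 were called lower and 245 higher. The counts of target genes lower, all genes lower and all genes higher were 1, 27 and 36 without a filter on low values, 1, 35 and 43 with edgeR, 7, 874 and 1012 with DESeq2, and 0, 6 and 8 with the 5 crocidolite lines from p53+/- mice. Without the line term (no replicate block), the unpaired fit gave 2, 58 and 81. Omission of single lines gave 0 to 7, 8 to 263 and 14 to 508. Without m5, m12 and m67, chosen after seeing the data, the counts were 4, 51 and 54. No target gene was called higher under any of these alternatives. The fold changes of the target genes kept their direction in all of them except for Axl and F3, neither of which was called. Axl ranged from -1.42 to 0.13 over omissions of 1 line and was 0.01 without m5 and m12 and 0.17 without m5, m12 and m67, while F3 ranged from -0.81 to 0.20 and was 0.00 without those 3 lines. Yap1, not called either, ranged from -0.27 to 0.50 over such omissions and was -0.20 without m5 and m12 and -0.17 without the 3 lines. Omitting lines lowers the number of samples, and the 14 libraries and 1 library per line and culture limit what can be called. Library totals differed up to several-fold, with m5 and m12 the deepest, and values near 3 reads (Vgll3 in 3D m5 and m12, Prss23 in 3D m28) are limited by depth.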
